A study of Arabidopsis thaliana with 5 samples.

Results

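Cytochrome P450 genes were taken as the probe sets that name 1 gene and whose gene symbol is CYP followed by 2 or 3 digits and a letter. The rule found 3 genes, CYP71B6 (AT2G24180), CYP71B28 (AT1G13090) and CYP71B29 (AT1G13100), each with 1 probe set, among 3602 genes with a named probe set of their own and 8247 probe sets in all. The RefSeq gene table of assembly TAIR10.1 holds 236 genes with such a symbol, 36 of them in the CYP71B subfamily. Of the 8247 probe sets, 4383 name no gene and 70 name several, and these were not searched for P450 genes. The other P450 genes were not analysed here, so what follows describes 3 members of a single subfamily and not the whole family.

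Cytochromes P450 are haem-containing monooxygenases. Most plant members are anchored in the endoplasmic reticulum, take electrons from a P450 reductase and insert an oxygen atom into their substrate. In Arabidopsis they work in the synthesis and breakdown of hormones, sterols, phenylpropanoids, cuticle lipids, glucosinolates and the indole phytoalexin camalexin. The CYP71B subfamily belongs to the large plant clan of specialised metabolism. CYP71B6 oxidises indole-3-acetonitrile, a metabolite shared by indole glucosinolate breakdown and the camalexin route, and leads to indole-3-carboxylic acid derivatives. No role is given here for CYP71B28 or CYP71B29.

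RNA was measured from whole Arabidopsis plants at growth stage 1.04 on 5 one-colour Affymetrix arrays, 1 array for each group, after growth on Gamborg's B-5 medium at 18 degrees and 65% humidity with 16 h of light and 8 h of dark. Plants labelled Col-0 were the accession itself and the T-DNA lines CAMTA.1.2 and CAMTA.6.2, and plants labelled WS were the accession itself and the line CAMTA.1. CAMTA genes, from which the lines take their names, code for transcription factors that bind calmodulin. Per the labels, CAMTA.1.2 and CAMTA.6.2 are T3-generation lines made by Agrobacterium infiltration with the vector pROK2. CAMTA.6.2 is labelled as segregating, so its plants may not all have carried the insertion in the same state. The insertion of CAMTA.1 is not described in the sources used here, and neither is the number of plants behind an array.

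The labels could be checked only in part. The source names of the arrays do not follow their line and accession characteristics. For example, that of the CAMTA.6.2 array reads WSC and that of the Col-0 array KO1. Arrays are therefore named by the accession and line in the characteristics, and every direction rests on those. ECS1, a gene with a known difference between accessions, had scaled intensities of 3545 to 6832 on the 3 arrays labelled Col-0, CAMTA.6.2 among them, and of 39.1 and 97.3 on the 2 labelled WS. Of the 6 CAMTA genes, 2 had a named probe set. CAMTA4 was under the floor on all 5 arrays and CAMTA5 was at 15.5 to 21.7, with the floor at 18.1, so neither checks a line. For the label whole plant, all 4 photosynthetic shoot markers were above the floor on every array, and all 3 root markers were above it on the CAMTA.6.2, WS and CAMTA.1 arrays. The anther gene ATA20 was above the floor on all arrays, at 163 on the Col-0 array and 20.2 on the CAMTA.6.2 array. No probe set was named for the seed markers. The scanner background per array was 60.7 to 92.6 per the labels.

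The deposited intensities of CYP71B6 were 279.7 for Col-0, 233.1 for CAMTA.1.2, 101.4 for CAMTA.6.2, 299.1 for WS and 149.7 for CAMTA.1. The 2 arrays with no line named were highest, and the CAMTA.6.2 array was lowest. Those of CYP71B28 were 115.3 on Col-0, 136 on CAMTA.1.2, 49.9 on CAMTA.6.2, 149.7 on WS and 88.3 on CAMTA.1. The CAMTA.6.2 and CAMTA.1 arrays were again the lowest pair, but here CAMTA.1.2 lay above Col-0. Those of CYP71B29 were 26.9 on Col-0, 32.9 on CAMTA.1.2, 30.7 on CAMTA.6.2, 23.9 on WS and 24.0 on CAMTA.1. CYP71B29 varied least, with the lowest 2 values on the arrays labelled WS.

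After each array was scaled to a common median, all 3 genes stayed above the floor on all 5 arrays. The highest array was 2.69 times the lowest for CYP71B6, 2.73 times for CYP71B28 and 1.47 times for CYP71B29. CYP71B29 was dim, its lowest scaled intensity being 1.24 times the floor, so only a small fall could have been measured for it. With 1 array in each group there was no spread between replicates, and neighbours in these orders, such as 279 on Col-0 and 281 on WS for CYP71B6, could not be tested against one. Probes of different genes bind with different strength, so the levels of the 3 genes were not set against each other.

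**Figure D1:**
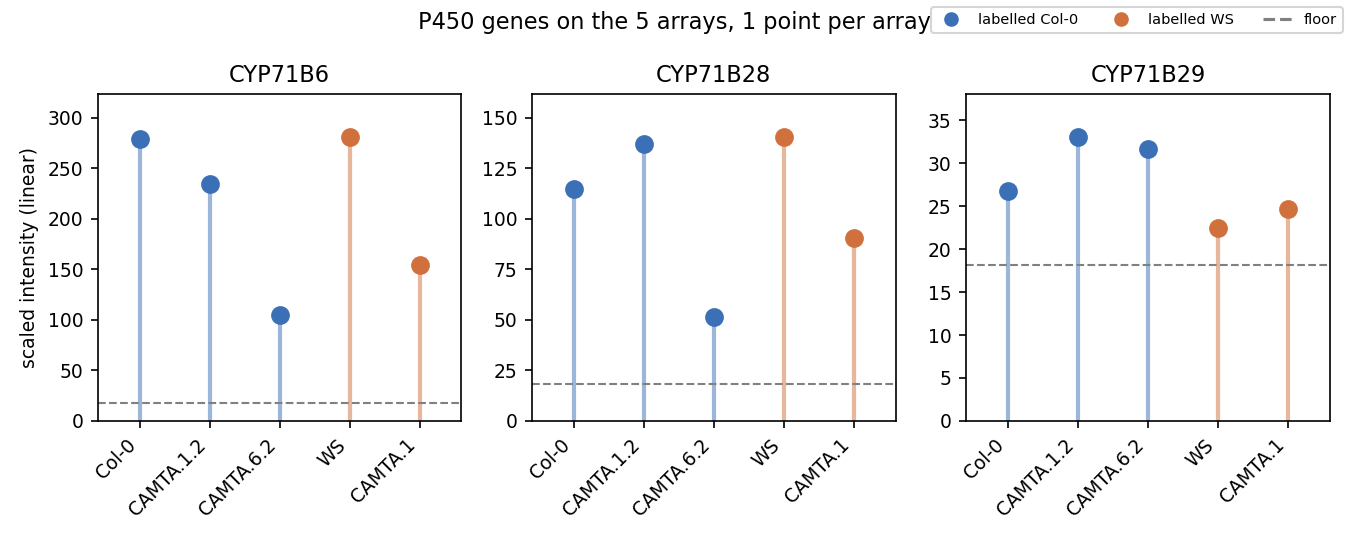
Scaled intensity (linear axis from 0) of CYP71B6, CYP71B28 and CYP71B29 on each of the 5 arrays, 1 point per array, coloured by labelled accession, with the floor of 18.1 as a dashed line. CYP71B6 and CYP71B28 are lowest on the CAMTA.6.2 array, at 105 and 51.5, and CYP71B29 stays between 22.5 and 33.1.

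CYP71B6 and CYP71B28 were both lower on the CAMTA.6.2 array than on the Col-0 array. CYP71B6, the indole-3-acetonitrile oxidase gene, had 105 against 279, a 2.66-fold lower scaled intensity and a log2 difference of -1.41. CYP71B28 had 51.5 against 115, a 2.23-fold lower intensity and a log2 difference of -1.16. CYP71B29, the next gene after CYP71B28 on chromosome 1, had 31.7 against 26.8 and a log2 difference of 0.24 in the other direction.

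Thus 2 of the 3 genes were at least 2-fold lower and 0 higher on the CAMTA.6.2 array. Of the 5313 probe sets above the floor on either array, 6.47% were 2-fold lower and 5.38% higher. The median log2 difference was -1.16 over the 3 genes and 0.05 over those 5313 probe sets. Of these probe sets, 3.48% were at least as low as CYP71B6 and 5.03% at least as low as CYP71B28. Among 1375 probe sets with a mean within 2-fold of that of CYP71B6 and above the floor on both arrays, 8.07% were 2-fold lower. The difference has no replicate check, and 3 genes are too few to say that the family stood apart from other genes.

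Other values moved with this comparison. The 3'/5' signal ratio of the ubiquitin control, which increases as RNA is shortened, was 3.57 for CAMTA.6.2 and 2.64 for Col-0, and the GAPDH ratio was 1.78 and 1.64. The summed intensity of the 3 root markers was 354 against 168, with 2 of the 3 at least 2-fold higher. That of the 4 photosynthetic shoot markers was 12882 against 9232, again with 2 at least 2-fold higher, LHB1B2 at a log2 difference of 2.35 and PSAE-1 at 1.02, while PRK was at -0.65 and RCA at -0.14. ATA20, the 1 anther gene of 2 with a named probe set, was at 20.2 against 163. The part of RNA quality and of tissue makeup in the lower CYP71B6 and CYP71B28 values was not tested. In whole plants, fewer cells of a type and less RNA per cell cannot be told apart.

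On the CAMTA.1 array, CYP71B6 and CYP71B28 were also lower than on its control, WS, but by less than 2-fold. CYP71B6 had 154 against 281, which is 1.83-fold lower with a log2 difference of -0.87. With the values as deposited it was -0.999, just short of 2-fold, since the scaling adds 0.13 to log2 differences of this pair where both arrays are above the floor. CYP71B28 had 90.7 against 141, which is 1.55-fold lower with a log2 difference of -0.63. CYP71B29 had 24.6 against 22.5, a log2 difference of 0.13.

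In this pair 0 of the 3 genes reached 2-fold, where 5.77% of the 5300 probe sets above the floor on either array were 2-fold lower and 3.75% higher. Of these, 7.17% were at least as low as CYP71B6 and 11.3% at least as low as CYP71B28. The median log2 difference was -0.63 over the 3 genes and 0.09 over the 5300 probe sets. The ubiquitin ratio was 3.32 for CAMTA.1 and 2.28 for WS, and the GAPDH ratio was 1.29 and 1.38. The photosynthetic markers summed to 10834 against 7176, with LHB1B2 alone of the 4 at least 2-fold higher, at a log2 difference of 2.29, and PRK at -0.21. The root markers summed to 399 against 339, with none 2-fold apart and AT4G26010 at -0.49. ATA20 was at 22.3 against 50.9. Their part in the result was not tested.

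**Figure D2:**
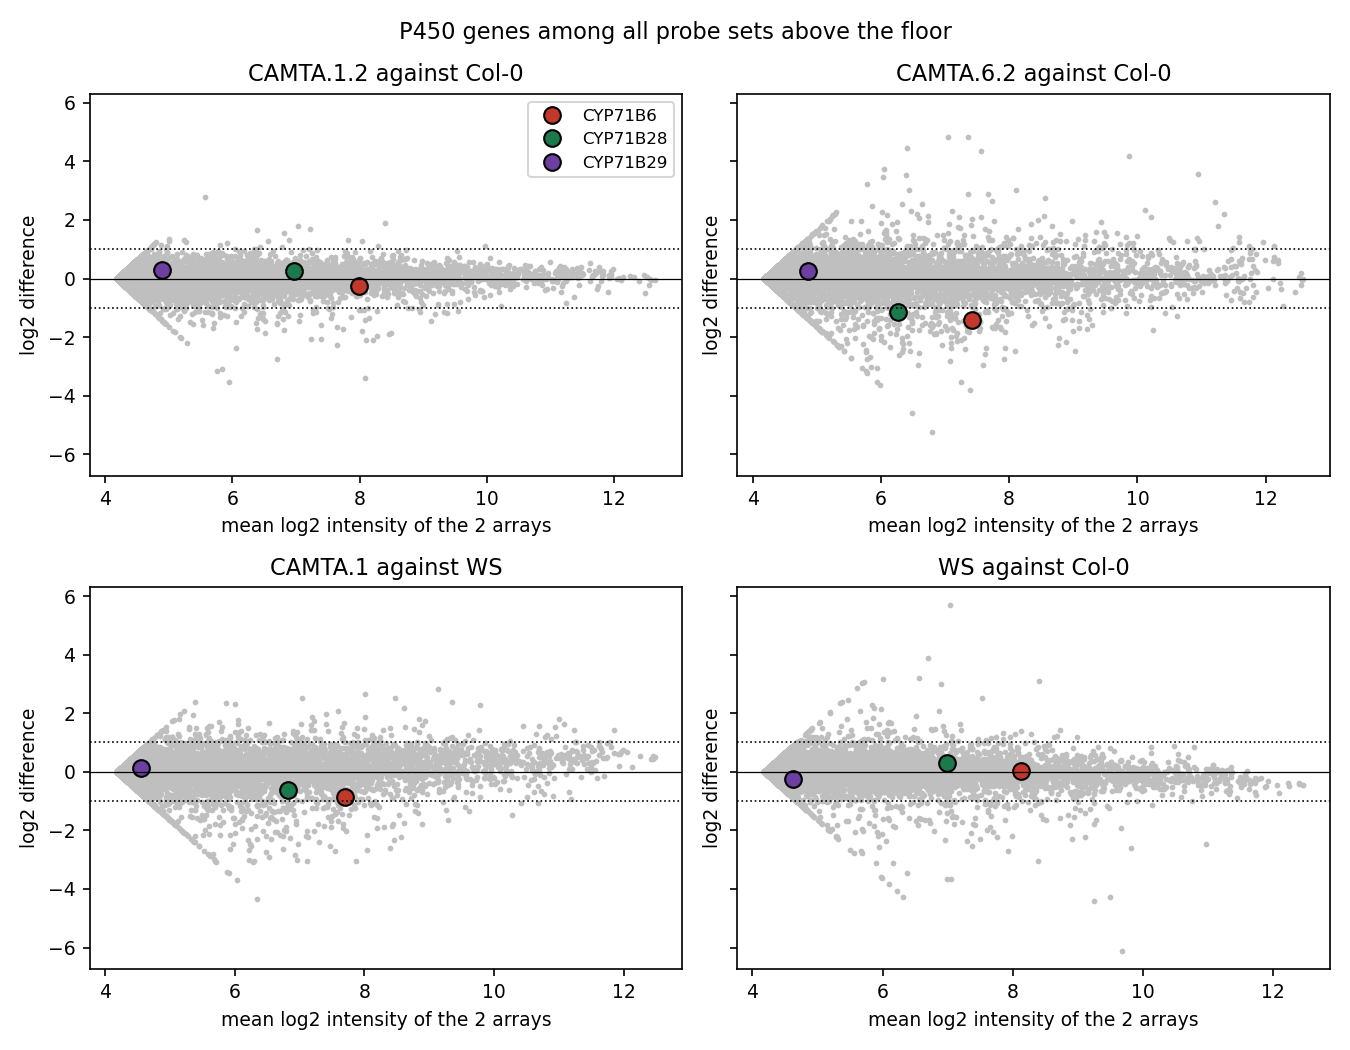
Log2 difference against mean log2 scaled intensity for every probe set above the floor on either array (grey) in the 4 comparisons, with CYP71B6, CYP71B28 and CYP71B29 as large coloured points and 2-fold as dotted lines. CYP71B6 and CYP71B28 lie beyond the lower line for CAMTA.6.2 against Col-0, at -1.41 and -1.16, and between the lines elsewhere.

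The CAMTA.1.2 array differed little from Col-0 at these genes. CYP71B6 had 235 against 279, a log2 difference of -0.25, and 22.5% of the 5194 probe sets above the floor on either array were at least as low. CYP71B28 had 137 against 115, a log2 difference of 0.25, and CYP71B29 had 33.1 against 26.8, one of 0.30. None of the 3 reached 2-fold, where 2.43% of those 5194 probe sets were 2-fold lower and 0.635% higher. The ubiquitin ratio was 2.68 here against 2.64 on Col-0 and the GAPDH ratio 1.94 against 1.64. ATA20 was at 67.7 against 163, a log2 difference of -1.27. The root markers summed to 136 against 168, with none 2-fold apart and AT3G01190 at 0.53. The photosynthetic markers summed to 10570 against 9232, with none 2-fold apart. Their part was not tested. The comparisons of CAMTA.1.2 and CAMTA.6.2 share the Col-0 array, and CYP71B28 was above that array in the first and below it in the second.

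Between the accessions, the WS and Col-0 arrays had nearly the same CYP71B6 intensity, 281 and 279, a log2 difference of 0.01. CYP71B28 was at 141 and 115, a log2 difference of 0.29, and CYP71B29 at 22.5 and 26.8, a log2 difference of -0.25. None of the 3 reached 2-fold, where 3.99% of 5285 probe sets above the floor on either array were 2-fold lower on WS and 2.48% higher. In this pair the root markers summed to 339 against 168, with 2 of 3 at least 2-fold higher, the photosynthetic markers to 7176 against 9232, with none 2-fold apart, and ATA20 was at 50.9 against 163. The ubiquitin ratio was 2.28 against 2.64 and the GAPDH ratio 1.38 against 1.64. Their part was not tested.

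All 5 arrays were then set against accession, with the lines as the only spread there was within each. CYP71B6 ranged from 105 to 279 on the 3 arrays labelled Col-0 and from 154 to 281 on the 2 labelled WS, so the groups overlapped. CYP71B28 ranged from 51.5 to 137 and from 90.7 to 141, which also overlap. CYP71B29 did not overlap, with 26.8 to 33.1 on the Col-0 labels and 22.5 to 24.6 on the WS labels. Of the 5635 probe sets that exceeded the floor on 1 array or more, 22.2% did not overlap in either direction and 9.71% were lower on both arrays labelled WS, and 1 such gene among 3 cannot be told apart from that background.

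In limma over those 5635 probe sets, 0 of the 3 genes passed for accession, and 0 had an unadjusted p under 0.05. The same fit called 18 probe sets, 0.319% of those tested, and 408 at an unadjusted p under 0.05. CYP71B29 had a log2 difference of -0.37 between WS and Col-0 labels (95% interval -0.78 to 0.04, adjusted p = 0.77 by limma). CYP71B28 had one of 0.28 (-0.96 to 1.52, adjusted p = 0.95) and CYP71B6 one of 0.13 (-1.16 to 1.42, adjusted p = 0.98). The interval of CYP71B6 reaches past 2-fold on both sides and that of CYP71B28 on the upper side, so these 5 arrays set no narrow bound on an accession difference. Without the CAMTA.6.2 array the log2 differences of these genes changed sign, to -0.30 for CYP71B6 and -0.15 for CYP71B28, and without the WS array to -0.30 and -0.04.

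**Figure D3:**
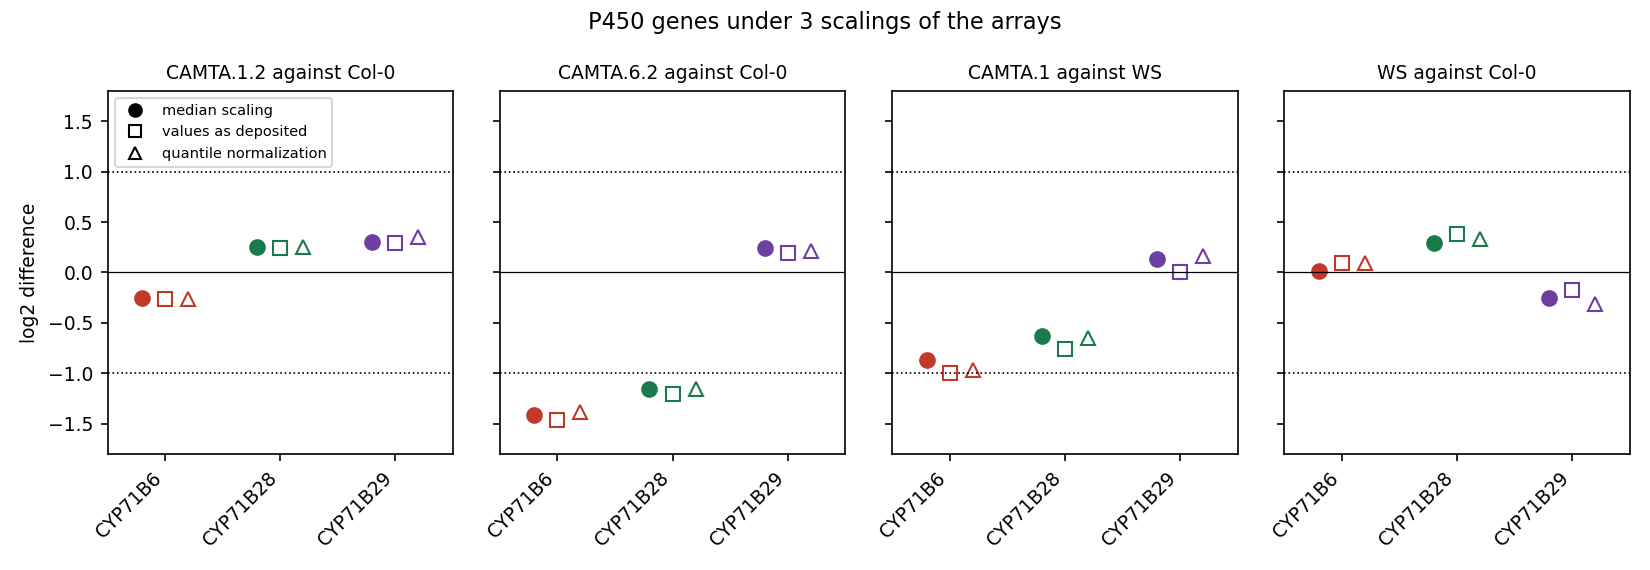
Log2 difference of CYP71B6, CYP71B28 and CYP71B29 in the 4 comparisons with median scaling (filled circles), with the values as deposited (squares) and with quantile normalization (triangles), 2-fold shown by dotted lines. Under all 3 scalings CYP71B6 and CYP71B28 are beyond 2-fold only for CAMTA.6.2 against Col-0.

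The 3 genes differ in their place in the genome. CYP71B28 and CYP71B29 are adjacent loci on chromosome 1, between CYP71B2 and CYP71B7, with CYP86C3 and CYP86C4 close by. Of the 20 protein-coding genes nearest to CYP71B28, 10 on each side, 5 have a P450 symbol. Of the 20 nearest to CYP71B6 on chromosome 2, 0 have one. Apart from the members, 2 of the genes around CYP71B28 and 6 of those around CYP71B6 had a named probe set, 2 and 3 of these above the floor on an array, and none was 2-fold apart in any of the 4 comparisons. This look at neighbours was chosen after the values were seen. The log2 differences of the adjacent CYP71B28 and CYP71B29 were -1.16 and 0.24 on the CAMTA.6.2 array, -0.63 and 0.13 on the CAMTA.1 array and 0.25 and 0.30 on the CAMTA.1.2 array. With the values as deposited the 0.13 of CYP71B29 was 0.01, and with the floor at the 50th percentile it was 0. The CYP71B6 probe set, 16108_s_at, has the suffix that marks probes able to match further transcripts, so its signal may hold those of related genes.

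Of the pathway genes around these enzymes, few had a named probe set. Of 18 P450 genes listed for glucosinolates, auxin precursors and camalexin, CYP71B6 alone had a named probe set of its own. The lists for 11 other roles, brassinosteroid and abscisic acid P450s among them, had none. Of 19 glucosinolate genes outside the P450s, 2 were named and 1 was above the floor, with 0 at 2-fold or more in any comparison. This was UGT74B1, a glucosyltransferase gene of the glucosinolate core pathway. It had scaled intensities of 65.4 on Col-0, 77.0 on CAMTA.1.2, 48.9 on CAMTA.6.2, 67.8 on WS and 86.4 on CAMTA.1. It was lowest on the CAMTA.6.2 array, with a log2 difference of -0.42 from Col-0, but highest on the CAMTA.1 array, at 0.35 from WS. AOP3, of glucosinolate side-chain modification, and DFR, the dihydroflavonol reductase gene and the 1 named of 13 phenylpropanoid genes, were under the floor on all arrays. No probe set was named for the 2 P450 reductases or for 8 jasmonate genes.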

How the data were processed

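Expression was measured in whole plants on 5 one-colour arrays. The authors deposited a linear intensity for every probe set of every array. The 2% trimmed means lay near 100 on all arrays, so the authors had already scaled them alike. How probes were summarised is not given in these sources. Of 8297 probe sets, 50 controls were left out. The floor was the 40th percentile of all values, 18.1. Arrays were scaled by their median log2 over the 4245 probe sets above it on all arrays, lower values were raised to it, and differences were formed on the log2 scale. Members were counted as apart at 2-fold. Accession was tested with limma 3.58.1 (R 4.3.3, trend) over the 5635 probe sets that exceeded the floor on 1 array or more, with Benjamini-Hochberg adjustment at 0.05; its 3 residual degrees of freedom hold the spread between lines, which may include effects of the lines and of the arrays. The steps were tested on simulated data. Gene names came from the platform annotation, and the loci and neighbours from TAIR10.1. Any member could be named; other genes came from pathway and marker lists. Members and lists were chosen with earlier results of these data known. Alternatives were other scalings, floors, probe set rules, a 1.5-fold limit, no filter, an additive model and each array left out. The number of arrays limits the precision. Python 3.11.15, numpy 2.4.6 and pandas 2.3.3 were used.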

Additional observations from a re-analysis of the deposited data

Results flagged for a closer look

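CYP71B28 had a log2 difference of 0.25 for CAMTA.1.2 against Col-0 and of -0.63 for CAMTA.1 against WS, so these lines lay on opposite sides of their controls. The third line, CAMTA.6.2 in Col-0, was at -1.16, on the same side as CAMTA.1, so the lines labelled Col-0 lay on both sides of the Col-0 array. With 1 array on each side the difference was not tested, and neither of the first 2 values reaches 2-fold.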

How the results depend on the processing

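The count of P450 genes 2-fold apart was 2 for CAMTA.6.2 against Col-0 and 0 for the other 3 comparisons under the values as deposited, quantile normalization, floors at the 30th and 50th percentiles and the mean over probe sets, which changes nothing where a gene has 1. With a 1.5-fold limit the count for CAMTA.1 against WS was 2, and the other counts stayed the same. CYP71B6 at -0.87 and CYP71B28 at -0.63 lie between the 1.5-fold and 2-fold limits. In this pair 11.3% of the 5300 probe sets above the floor on either array were at least as low as CYP71B28. The share of all probe sets past 1.5-fold is not given here. Over these settings CYP71B6 ranged in log2 difference from -1.46 to -1.39 and CYP71B28 from -1.21 to -1.13 for CAMTA.6.2 against Col-0. For CAMTA.1 against WS they ranged from -0.999 to -0.84 and from -0.76 to -0.61.

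The limma count for accession was 0 of 3 genes under every alternative, and 0 to 0 with each array left out, where a lone array in an accession is assumed to vary like the others. Over all probe sets limma called 18 in the main fit and 103 in the additive model over the 4 arrays other than CAMTA.6.2. With accession alone on the same 4 arrays it called 14, and it called 0 without the Col-0 or CAMTA.1.2 array. Such counts are not given without the WS or CAMTA.1 array, since these fits leave 1 array labelled WS. The cause was not tested. CYP71B6 ranged in log2 difference by accession from -0.30 to 0.57, CYP71B28 from -0.15 to 0.59 and CYP71B29 from -0.46 to -0.10. Both CYP71B6 and CYP71B28 changed sign without the CAMTA.6.2 array and without the WS array. The additive model gave the same log2 differences as the fit without CAMTA.6.2. Both use the same 4 arrays, on which line status is balanced between the accessions. Without the filter on dim probe sets CYP71B29 had an unadjusted p of 0.046 (adjusted p = 0.87 by limma). No paired analysis was possible because each group had 1 array. The additive model sets accession beside line status instead.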
